A study of Rattus norvegicus with 4 samples.

Results

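The Hippo pathway and the genes that its effector YAP switches on were followed in 10 of the 35636 gene names on the array, represented by 14 of its 41012 gene probes. The probes were taken by gene name. The 10 genes themselves were chosen by a proposal made with their log2 ratios of p75High over p75Low on these same arrays in view. Their ratios are therefore given as a description, with no p-value, and the count of them past the threshold of the fit is printed once with nothing read from it. By the labels, olfactory ensheathing cells, glial cells that surround olfactory axons, were cultured from male Fischer rats and separated by their level of p75, a neurotrophin receptor. The p75High and the p75Low population came from the same 4 biological replicates, with a stated sort purity of 98%. The 9 microglia and macrophage markers tested, described below, had a median log2 ratio of -4.58 (p75High over p75Low). The label alone therefore does not give the cell makeup of p75Low. The labels name no transgene and no treatment other than the sort, and the age of the rats, and whether each replicate came from its own animal, are not given in the sources used here, so the spread between replicates may be partly technical. Each replicate filled 1 array, where Cy5 marked the p75High and Cy3 the p75Low cDNA.

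In the Hippo pathway, the kinases MST1 and MST2 activate the kinases LATS1 and LATS2, which phosphorylate the coactivator YAP and its relative TAZ and so keep them out of the nucleus. Angiomotin family proteins bind YAP at cell junctions and on actin. When YAP is free to enter the nucleus, it binds TEAD transcription factors at target genes, among them the genes of the secreted proteins CTGF and CYR61 and of the pathway's own members AMOTL2 and LATS2. In Schwann cells, which are close relatives of ensheathing glia, YAP and TAZ are known for their part in growth and in making myelin.

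TEAD proteins bind a short element with the core GGAATG, so the promoters of the genes were read for it. The RefSeq promoter table of the GRCr8 build held 6 of the 10 genes (Amotl1, Amotl2, Axl, Ctgf, Cyr61 and Yap1). It lists 10 starts for these 6 genes. In the 250 bases before the start, 4 of the 10 entries, each of another gene, held GGAATG or its other-strand form CATTCC. Of all 33469 entries of the table, 12.1% held a match in the same window. These 4 windows are printed because each held a match, with the matched letters in capitals and the strand of the gene given. The windows lie at chr1:22624615-22624864 on the minus strand (Ctgf), chr2:237225690-237225939 on the minus strand (Cyr61), chr8:112182376-112182625 on the plus strand (Amotl2) and chr8:13451438-13451687 on the minus strand (Yap1).
Ctgf: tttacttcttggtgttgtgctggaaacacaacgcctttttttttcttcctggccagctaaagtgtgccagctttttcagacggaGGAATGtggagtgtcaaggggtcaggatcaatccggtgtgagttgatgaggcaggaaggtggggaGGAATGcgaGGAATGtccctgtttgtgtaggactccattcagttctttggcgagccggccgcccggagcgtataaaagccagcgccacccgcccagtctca
Cyr61: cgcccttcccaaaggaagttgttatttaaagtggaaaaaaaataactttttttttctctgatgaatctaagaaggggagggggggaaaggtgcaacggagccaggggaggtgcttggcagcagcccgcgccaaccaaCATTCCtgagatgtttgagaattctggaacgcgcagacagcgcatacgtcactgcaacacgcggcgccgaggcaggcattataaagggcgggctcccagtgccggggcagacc
Amotl2: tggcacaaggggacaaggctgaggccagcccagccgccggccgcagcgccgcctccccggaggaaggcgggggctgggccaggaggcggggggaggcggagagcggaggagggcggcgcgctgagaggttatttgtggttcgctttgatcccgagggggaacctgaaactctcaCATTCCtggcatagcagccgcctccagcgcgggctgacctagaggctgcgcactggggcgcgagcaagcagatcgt
Yap1: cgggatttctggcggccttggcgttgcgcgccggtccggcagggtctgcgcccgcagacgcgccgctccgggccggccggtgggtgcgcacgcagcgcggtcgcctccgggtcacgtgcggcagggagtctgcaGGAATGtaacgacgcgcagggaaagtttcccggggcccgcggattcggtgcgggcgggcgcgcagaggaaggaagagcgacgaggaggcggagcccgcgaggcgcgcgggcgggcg

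Ctgf held 3 matches on its own strand, beginning 166, 101 and 92 bases before the start. In the whole table, 0.0807% of entries held 3 or more. Cyr61 held 1 match beginning 113 bases before the start, Amotl2 1 beginning 76 bases before it and Yap1 1 beginning 116 bases before it. Axl and the 5 listed starts of Amotl1 held none. A match is a run of letters in this window, and binding was not measured.

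The arrays differed in how much they detected. Per array, p75High gave 22347 to 28007 probes with signal well above background, and p75Low gave 22941 to 26121. Replicate 4 had the lowest number in each channel, and it alone had fewer in p75High (22347) than in p75Low (22941). Ngfr, which encodes p75, checked the sort: its log2 ratio was 5.80 ± 0.53 (SD, n = 4, adjusted p = 0.0262 by limma), with 6.07, 6.17, 5.02 and 5.96 in replicates 1 to 4. With a replicate left out its adjusted p by limma was 0.0963 to 0.138. Between arrays, the ratios correlated at 0.17 to 0.25 across genes, and the median SD per gene was 1.15 on the log2 scale.

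The scaffold gene Amotl2 had the highest mean ratio of the 10 genes by its main probe, and Tead1 had the lowest. By main probe, 8 of the 10 genes had a mean log2 ratio above 0, and the median of the 10 was 1.61, beside -0.03 over all 22159 genes tested. The main probe is the brighter where a gene has more than 1. Of the 10 genes, 8 passed the filter on dim probes, which asked that 1 channel be well above background on 3 or more arrays, and Amotl1 and Ankrd1 did not. All 22159 genes tested had passed it, and the median of the 8 was 1.74. Stk3 and Ctgf passed through their p75High channel alone. In the fit over all genes, 0.749% of those tested were called in either direction at an adjusted p under 0.05, and 0.311% were called higher. Of the 10 genes, 8 were in this fit and 1 was called, Amotl2 with p75High higher. That count was 0 with the median over a gene's probes and with any 1 replicate left out, when no gene on the array was called (805 to 1151 genes higher and 1020 to 1220 lower at an unadjusted p under 0.05 by limma). A ratio above 0 on all 4 arrays was found for Amotl2 and Cyr61 by main probe, as for 12.6% of all genes with a reading on each array. Because these ratios led to the choice of the genes, nothing is read from these counts. In sorted populations measured in bulk, fewer cells of a type and less RNA per cell cannot be told apart.

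**Figure D1:**
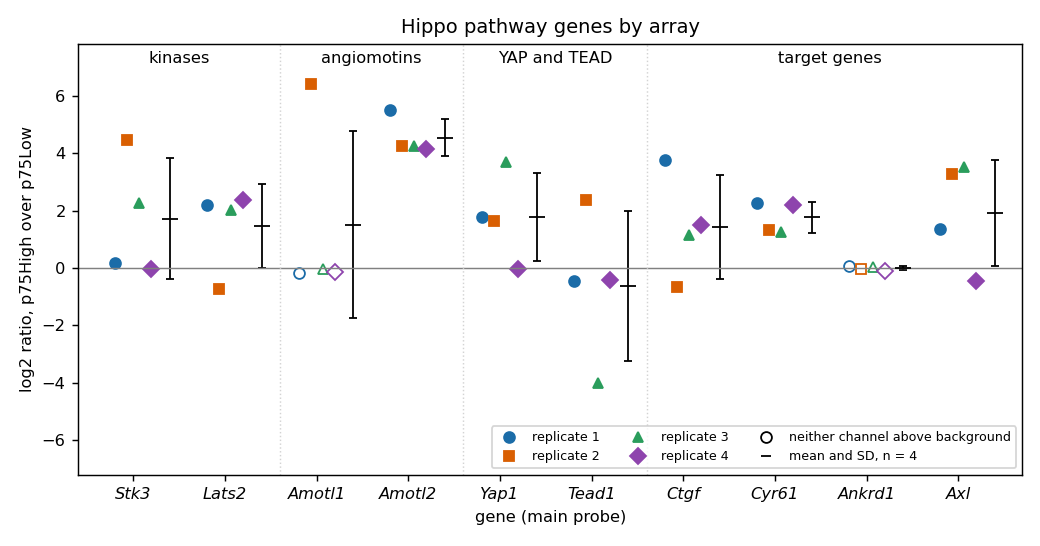
The log2 ratio of p75High over p75Low (vertical axis) of the main probe of each of the 10 genes, 1 point per array, with the mean and SD (n = 4) beside them; open points mark arrays where neither channel was well above background. All 4 points of Amotl2 lie above 4, while Amotl1 has 1 point at 6.40 and 3 open points near 0.

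Stk3 encodes MST2, the upstream kinase of the pathway. Its single probe (rn4 chr7:70308307-70308366) read log2 ratios of 0.17, 4.46, 2.26 and -0.05 in replicates 1 to 4, a mean of 1.71 ± 2.11 (SD, n = 4). Replicates 2 and 3 stood high and replicates 1 and 4 lay near 0. The p75High channel was well above background on 4 arrays and the p75Low channel in replicate 4 alone. The ratios of replicates 1 to 3, the 2 high ones among them, are therefore set against an undetected channel. The log2 intensities of p75High ran from 6.47 to 10.87 and those of p75Low from 6.18 to 6.65, so the groups overlapped. The mean was 3.02 by the scanner's own log ratio, 0.79 without replicate 2 and 2.30 without replicate 4.

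Lats2 encodes a kinase that phosphorylates YAP and is itself a YAP target. Its probe (rn4 chr15:36722108-36724785, the 60 bases placed over 2678 bases and so on more than 1 exon) read 2.20, -0.73, 2.03 and 2.36 in replicates 1 to 4, a mean of 1.47 ± 1.47 (SD, n = 4). In replicates 1, 3 and 4 the ratios lay close together, and replicate 2 went the other way; without it the mean was 2.20. Both channels were well above background on all 4 arrays.

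The paralogues of these kinases are not among the 10 genes and were tested in the fit over all genes. Stk4, which encodes MST1, read -3.08, 0.56, -3.02 and -0.74 (mean -1.57 ± 1.79, limma adjusted p = 0.471). Lats1 read -1.17, -5.15, -4.46 and 2.38 (mean -2.10 ± 3.46, limma adjusted p = 0.568). Neither passed, and for each the spread between the arrays was larger than the mean.

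Amotl2 encodes an angiomotin-like scaffold of cell junctions that binds YAP, and it is a YAP target. Its main probe read 5.50, 4.26, 4.24 and 4.14 in replicates 1 to 4, a mean of 4.53 ± 0.64 (SD, n = 4) or a 23.2-fold ratio. Every array read above 4, with replicate 1 highest. The log2 intensities ran from 11.01 to 12.05 in p75High and from 6.55 to 7.63 in p75Low and did not overlap, as for 3.74% of all genes with p75High above p75Low. The lowest p75Low values lay near those of undetected channels, such as Ctgf in replicate 4 at 6.68, so the size of the fold is uncertain. The second probe for the same transcript gave another picture: -0.14, -1.12, 0.20 and 1.27, a mean of 0.05 ± 0.98. Its channels overlapped, at 7.35 to 9.73 in p75High and 7.84 to 8.73 in p75Low, and both channels of both probes were well above background on all 4 arrays. The mean was 2.29 by the median over both probes and 5.87 by the scanner's log ratio of the main probe. Which of the probes follows the amount of Amotl2 RNA was not tested.

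The 2 Amotl2 probes are shown because they disagree, in lower case as the array file gives them, with no part marked. Probe 1 starts at base 2178 of the Ensembl transcript (rn4 chr8:107706680-107706739, plus strand). Probe 2 starts at base 1500 (rn4 chr8:107701808-107705071, plus strand), and its 60 bases are placed over 3264 bases and so on more than 1 exon. Both have the same GC content, 55.0%.
Amotl2 probe 1: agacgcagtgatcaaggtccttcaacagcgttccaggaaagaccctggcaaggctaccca
Amotl2 probe 2: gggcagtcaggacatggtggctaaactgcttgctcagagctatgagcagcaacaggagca

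Amotl1, which encodes the sister scaffold of Amotl2, was measured in 1 replicate alone. Its probe (rn4 chr8:11298736-11298795) read -0.16, 6.40, -0.04 and -0.14 in replicates 1 to 4. Neither channel was well above background in replicates 1, 3 and 4. In replicate 2 both were, with a log2 intensity of 12.98 in p75High and 6.59 in p75Low. The mean of 1.51 ± 3.26 rests on that array, and without replicate 2 it was -0.11. Amot, the third gene of the family, was not matched to a probe.

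**Figure D2:**
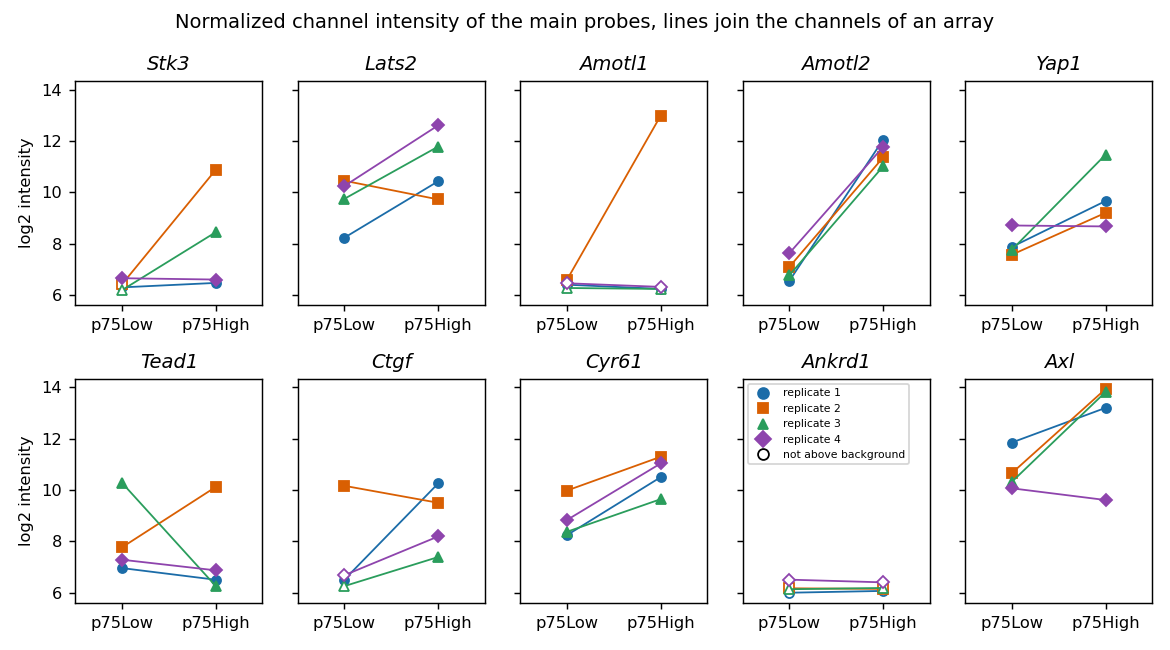
Normalized log2 intensity (vertical axis) of the main probe of each gene in p75Low and p75High, with lines joining the channels of an array and open points where a channel was not well above background. The Amotl2 channels are apart on every array, at 6.55 to 7.63 in p75Low and 11.01 to 12.05 in p75High, and the Ankrd1 points are all open.

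Yap1 encodes the coactivator itself. Its probe (rn4 chr8:4780713-4780772) read 1.79, 1.63, 3.71 and -0.04 in replicates 1 to 4, a mean of 1.77 ± 1.53 (SD, n = 4) or a 3.42-fold ratio. It was above 0 on 3 arrays and near 0 in replicate 4, where its p75Low intensity of 8.71 was the highest of the 4 and its p75High intensity of 8.67 the lowest. Without replicate 3 the mean was 1.13, and without replicate 4 it was 2.38. Wwtr1, which encodes TAZ, read 2.45, 3.69, -0.71 and 0.50 (mean 1.48 ± 1.97, limma adjusted p = 0.514), and its other probe had a mean of 0.20.

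Tead1 encodes a DNA-binding partner of YAP, and its 2 probes differed in the sign of the mean. The main probe read -0.45, 2.35, -4.02 and -0.41 in replicates 1 to 4, a mean of -0.63 ± 2.61 that was -1.28 by the scanner's log ratio, -1.63 without replicate 2 and 0.50 without replicate 3. The other probe read -0.95, 4.55, 2.91 and 0.31, a mean of 1.70 ± 2.49. The probes stood on the same side of 0 in replicates 1 and 2 and were furthest apart in replicate 3. In replicate 3 the p75High intensity of the main probe was 6.26 and the p75Low intensity of the other probe 6.44. Both lay near the values of undetected channels. The p75Low intensity of the other probe was 6.55 in replicate 2, and in replicate 4, at 6.76, it was not well above background. The probes are printed for that disagreement, again in lower case. The main probe lies at rn4 chr1:170557428-170557487 and starts at base 35 of its transcript, and the other lies at chr1:170673624-170673683 and starts at base 1800 of a second Tead1 transcript.
Tead1 main probe: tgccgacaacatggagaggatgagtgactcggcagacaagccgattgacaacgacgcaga
Tead1 other probe: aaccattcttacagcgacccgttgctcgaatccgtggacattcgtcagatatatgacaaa

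Other TEAD genes did not pass either. Tead2 read 2.63, 0.66, -0.62 and 1.22 (mean 0.97 ± 1.35, limma adjusted p = 0.54), and its other probe had a mean of 1.90. Tead3 read -1.08, -0.91, 3.84 and -0.98 (mean 0.22 ± 2.42, limma adjusted p = 0.937), and its mean was -0.99 without replicate 3. Tead4 was not matched to a probe.

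**Figure D3:**
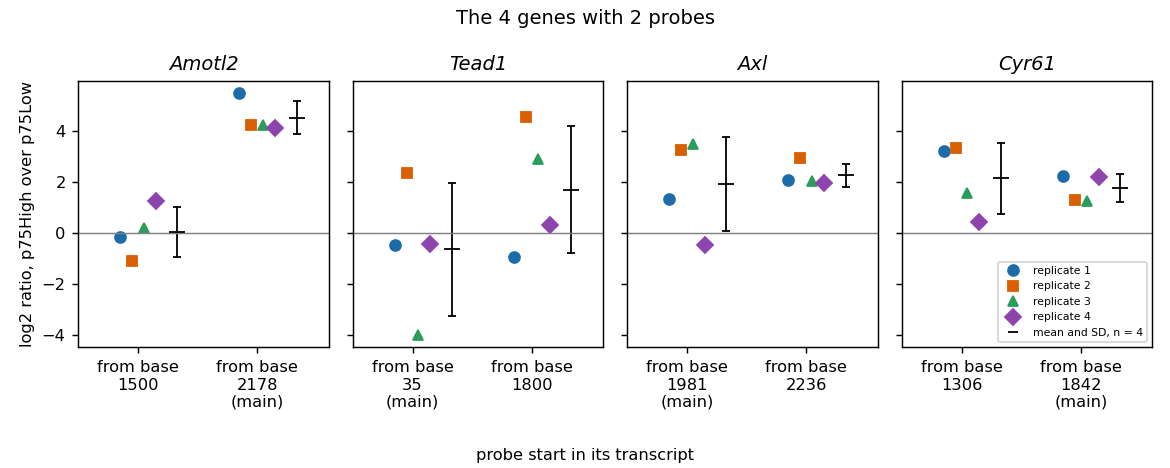
Log2 ratio of p75High over p75Low (vertical axis) by probe for the 4 genes with 2 probes, ordered by the base of the transcript at which each probe starts, with the mean and SD (n = 4). The Amotl2 probes have means of 0.05 and 4.53, and those of Axl 2.27 and 1.92 and those of Cyr61 2.15 and 1.76.

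Ctgf (now Ccn2) encodes a secreted matrix-binding protein and is a widely used readout of YAP. It had 10 repeat spots on each array, of which 9 entered in replicate 3. The ratios were 3.75, -0.66, 1.13 and 1.51 in replicates 1 to 4, a mean of 1.43 ± 1.81 (SD, n = 4) at rn4 chr1:21327574-21327633. Within an array the spots had an SD of 0.05 to 0.14. In replicate 2 the p75Low intensity was 10.16, against 6.25 to 6.68 on the other arrays. The p75Low channel was well above background in replicates 1 and 2 alone, so the ratios of replicates 3 and 4 are set against an undetected channel. In replicate 1 the p75Low intensity was 6.51, below the 6.68 of replicate 4, so that ratio too is set against a signal near background. The mean was 3.21 by the scanner's log ratio, 0.66 without replicate 1 and 2.13 without replicate 2.

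Cyr61 (now Ccn1), encodes a secreted sister protein of CTGF. Its main probe (rn4 chr2:243824388-243824447) read 2.26, 1.32, 1.27 and 2.20 in replicates 1 to 4, a mean of 1.76 ± 0.54 (SD, n = 4) or a 3.39-fold ratio. The other probe (rn4 chr2:243824922-243824981) read 3.24, 3.34, 1.56 and 0.44, a mean of 2.15 ± 1.40. Both probes read above 0 on all 4 arrays, and they are 2 readings of the same 4 replicates. The channels still overlapped for the main probe, at 9.64 to 11.29 in p75High and 8.24 to 9.98 in p75Low, since the level shifted between arrays.

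Axl encodes the receptor tyrosine kinase for GAS6, which glia, fibroblasts and macrophages can carry. Its main probe (rn4 chr1:80967569-80969294) read 1.35, 3.28, 3.50 and -0.46 in replicates 1 to 4, a mean of 1.92 ± 1.85 (SD, n = 4) that was 2.71 without replicate 4. The other probe (rn4 chr1:80965095-80966812) read 2.08, 2.96, 2.05 and 1.97, a mean of 2.27 ± 0.46. The main probe was above 0 on 3 arrays and the other on 4, and both read the same 4 replicates. The probes disagreed in replicate 4, where the main probe was the only one below 0.

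Ankrd1 encodes an ankyrin-repeat protein of muscle nuclei that YAP raises in many cell types. Its probe (rn4 chr1:240316831-240316890) was not well above background in either channel on any array. The ratios of 0.07, -0.02, 0.05 and -0.11 in replicates 1 to 4 therefore compare background with background, and no fold is given.

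The genes did not move as a block over the replicates. The median ratio of the 10 main probes was 1.57, 1.99, 1.65 and -0.04 in replicates 1 to 4, and 8, 7, 8 and 4 of the 10 were above 0. In replicate 2, by main probe, Stk3, Amotl1 and Tead1 had their highest ratios while Ctgf and Lats2 had their lowest. In replicate 4, by main probe, Stk3, Yap1, Tead1 and Axl lay below 0 while Amotl2, Lats2, Ctgf and Cyr61 stayed above 1; the other probes read 0.31 for Tead1, 1.97 for Axl, 1.27 for Amotl2 and 0.44 for Cyr61.

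The other genes of the pathway were taken from a list of components. Of 36 further Hippo components, 25 were tested (Btrc and Sav1 were too dim and 9 were not matched to a probe), and 0 were higher and 0 lower past an adjusted p of 0.05 by limma, with 2 higher and 3 lower at an unadjusted p under 0.05. Over all genes 0.749% were called, and 12.7% had an unadjusted p under 0.05 (5.80% higher and 6.92% lower). Their median log2 ratio was -0.07, with 12 above 0 and 13 below. The smallest p belonged to Csnk1e, a casein kinase, which read -2.34, -3.83, -4.48 and -5.88 (mean -4.13 ± 1.47, limma adjusted p = 0.118), and its other probe read -2.16, -3.04, -0.55 and 0.20 (mean -1.39). Vgll4, a TEAD cofactor that competes with YAP, read 1.93, 2.22, 0.71 and 3.09 (mean 1.99 ± 0.98, limma adjusted p = 0.257). Ajuba, a LIM protein that restrains LATS, read -1.50, -1.92, -0.70 and -3.34 (mean -1.87 ± 1.11, limma adjusted p = 0.307). By main probe these 3 genes kept their sign on all 4 arrays, and none passed the correction.

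Other genes of the conserved YAP target signature showed no common direction. Of 16, 12 were tested (F3 and Ptpn14 were too dim and 2 were not matched), and 0 were higher and 0 lower past an adjusted p of 0.05 by limma, with 2 higher and 1 lower at an unadjusted p under 0.05, beside the same 0.749% and 12.7% over all genes. The median log2 ratio was -0.0037, with 6 above 0 and 6 below, and thus near that of all genes. Gadd45a, a stress-induced growth arrest gene, read 6.88, 7.44, 6.45 and 0.30 (mean 5.27 ± 3.34, limma adjusted p = 0.293). Myof, which encodes the membrane repair protein myoferlin, read 2.81, 3.38, 3.76 and 0.01 (limma adjusted p = 0.321) with p75Low not well above background on any array and p75High well above it in replicates 1 to 3, so replicate 4 compares background with background and no fold is given. Nt5e, which encodes the ectoenzyme CD73, read -4.92, -4.11, -2.38 and -0.09 (mean -2.88 ± 2.14, limma adjusted p = 0.336). Its p75High channel was not well above background in replicate 3, and neither channel was in replicate 4.

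**Figure D4:**
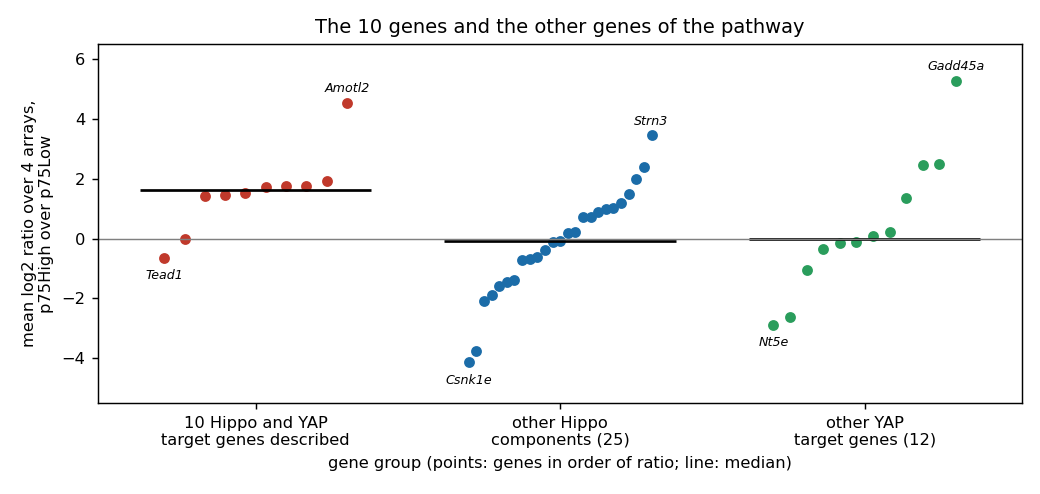
Mean log2 ratio over 4 arrays (vertical axis) of the 10 genes by main probe, of the 25 other Hippo components tested and of the 12 other YAP target genes tested, each point a gene and each line the median of its group. The medians are 1.61, -0.07 and -0.0037; the 10 genes were proposed with their ratios known, so their place is a description.

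Genes whose 4 ratios lay nearest to those of Amotl2 and Ctgf were looked up among 10674 other genes with a symbol, by the root mean square difference over the 4 arrays. For the main Amotl2 probe they were Abca8a (0.53), Banf1 (0.75) and Mxra8 (0.81), with means of 4.54, 4.44 and 3.82. The p75Low channel of Banf1 was well above background on 1 array, so its ratios are mostly set against an undetected channel, and its mean was 8.04 by the scanner's log ratio. For Ctgf they were Six5 (0.38), Tbc1d7 (0.48) and Nomo1 (0.48), with means of 1.73, 1.57 and 1.47. With so few arrays, a near pattern is a likeness of 4 numbers, and the other probes of Six5 and Tbc1d7 had means of -0.16 and 1.06.

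Cell type markers also differed between the populations. Of 9 tested microglia and macrophage markers, 6 passed the threshold with p75High lower and 0 with it higher. Over all genes 0.438% were called lower and 0.311% higher. At an unadjusted p under 0.05 by limma, 8 of the 9 were lower and 0 higher, beside 6.92% and 5.80% of all genes. The list had a median log2 ratio of -4.58 and medians of -5.36 to -4.59 over the arrays. The summed intensity of that list was 7757 to 14424 in p75High and 191279 to 291114 in p75Low, and each of the 9 markers was well above background in both channels on at least 3 arrays. Of the 11 markers of ensheathing and Schwann glia, 1 was higher (Ngfr, the sort gene) and 0 lower. At an unadjusted p under 0.05 by limma, 3 were higher, Ngfr among them, and 0 lower. By mean ratio, 10 were above 0 and 1 below. These markers had a median of 1.48 over the genes' means and list medians of 0.33, 0.61, 1.86 and 0.39 in replicates 1 to 4. Their summed intensity was 32730 to 46496 in p75High and 3131 to 15731 in p75Low. The medians and the sums include Ngfr, whose difference was set by the sort. Of 6 tested fibroblast markers 0 passed (2 higher and 2 lower at an unadjusted p under 0.05, by limma), with a median of -0.94 and a range of -2.71 to 4.80. By mean ratio, 2 of them were above 0 and 4 below. Their summed intensity was 59689 to 84516 in p75High and 13225 to 34679 in p75Low. The sums add linear intensities, so the brightest markers of a list weigh most in them. Of 4 smooth muscle and 3 endothelial markers 0 passed (0 and 1 at an unadjusted p under 0.05, by limma), with medians of -0.10 and 1.15 and summed intensities of 635 to 3967 and 591 to 1665 in p75High and of 980 to 26313 and 362 to 677 in p75Low. The part of these differences in cell makeup in the ratios of the Hippo genes was not tested.

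**Figure D5:**
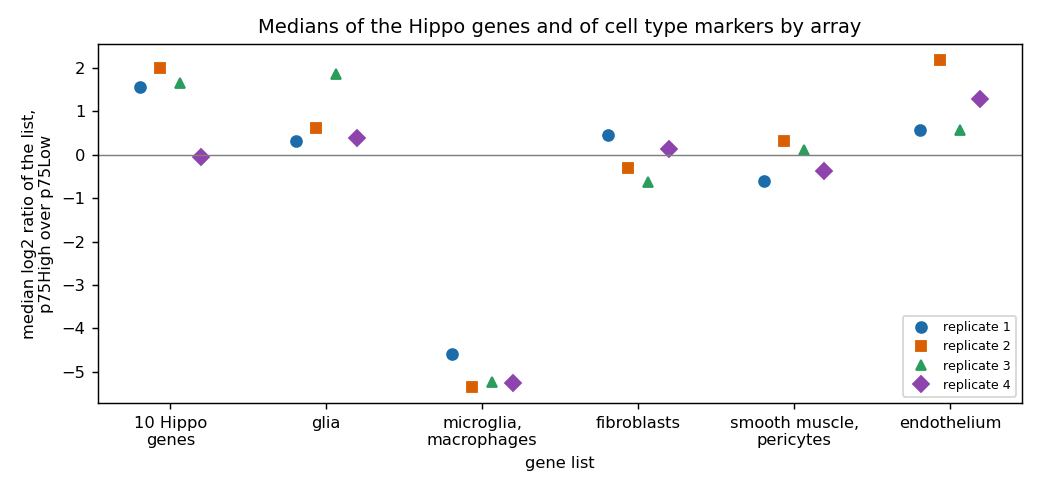
Median log2 ratio of p75High over p75Low (vertical axis) in each array for the 10 Hippo pathway and YAP target genes and for 5 lists of cell type markers, 1 point per array. The microglia and macrophage list lies between -5.36 and -4.59 on every array, and the 10 genes lie between 1.57 and 1.99 in 3 arrays and at -0.04 in replicate 4.

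Because p75High carried Cy5 on all 4 arrays, a dye effect on a single probe and a difference between the populations cannot be told apart.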

How the data were processed

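Per the labels' protocols, mRNA was bound to magnetic beads and its cDNA amplified by a global PCR (SuperAmp), with 250 ng per labelling. Agilent rat arrays (design 014879, 1 slide, coordinates on build rn4) were read with Feature Extraction, version 10.5.1.1 per the file headers and 10.5 per the submitters' processing notes. The deposited intensity values were, per the file headers, mean spot and median local background brightness in each channel. The software's own log10 ratios (Cy5 over Cy3) were deposited with them, and the series value table held the same ratios (largest difference 0, each column's median 0).

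Intensities were corrected with normexp (offset 50) and loess (span 0.3) in limma 3.58.1 under R 4.3.3. Spots marked as outliers (1112 of 173516 readings, 1 of them of Ctgf) were left out, no reading was saturated, and repeat spots were averaged. Filtering left 24833 probes and, with the brightest probe per gene, 22159 genes. Names came from the file and a RefSeq table of GRCr8, which matched 10963 probes by accession, 5160 by symbol and 3544 by older symbol; 21345 kept the file's name. Channel levels were scaled between arrays with Aquantile. The log2 ratio was tested against 0 (lmFit, eBayes, two-sided, Benjamini-Hochberg over all genes). The fit was also run on simulated normal noise with each gene's SD from these data. That noise did not model undetected channels, and no result here rests on it.

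The channels of an array are 1 replicate, as the design text states pairing; their deviations correlated at 0.12, 0.06, 0.07 and 0.26. The 10 genes, the lists and the alternatives were chosen with earlier results of these data known. Named were the 10 genes, their paralogues, Ngfr, up to 5 called genes of each pathway list or else the 3 with the smallest p, and the 3 genes nearest to Amotl2 and to Ctgf. The number of arrays limits the precision. Probe positions relative to untranslated regions were not analysed here.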

Additional observations from a re-analysis of the deposited data

Results flagged for a closer look

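For 6 of the 33 genes, probes and medians examined, 1 replicate lay far outside the range of the remaining 3 (Dixon's ratio of gap to range, whose chance rate is about 1 in 20). Of the 6, 4 are probes of the 10 genes, which were chosen with these values in view, so the count is not set against that rate. Amotl1 reached 6.40 in replicate 2, against a range of -0.16 to -0.04 elsewhere, where neither channel was well above background. The main Amotl2 probe reached 5.50 in replicate 1, against 4.14 to 4.26. The other Axl probe reached 2.96 in replicate 2, against 1.97 to 2.08. Lats2 was at -0.73 in replicate 2, against 2.03 to 2.36. Tead3 was at 3.84 in replicate 3, against -1.08 to -0.91. Gadd45a was at 0.30 in replicate 4, against 6.45 to 7.44. Each value is a log2 ratio (p75High over p75Low).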

How the results depend on the processing

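By limma, 69 genes were higher and 97 lower in p75High. The counts were 37 and 52 when dim probes stayed in, 113 and 154 by the scanner's log ratio, and 153 and 163 without the replicate block that pairs the channels of an array. With each replicate left out in turn, 0 to 0 genes were higher and 0 to 0 lower, and the mean of Amotl2 was 4.21 to 4.67. It was 2.29 by the median over probes, 0.05 by the dimmer probe and 5.87 by the scanner's log ratio. The further Hippo components and YAP targets had 0 calls in every setting run, and the median of the 10 genes ranged from 1.46 to 1.99. Signs turned for Tead1, at 1.70 by its dimmer probe (chosen after seeing the data), 0.53 by the median over probes and -1.63 to 0.50 with a replicate left out; for Amotl1, at -0.11 to 2.07 with a replicate left out; for Tead3, at -0.99 to 0.65; and for the undetected Ankrd1, at 0.18 by the scanner's ratio and -0.026 to 0.032 with a replicate left out. The cause was not tested. Median centring put the median of all genes at 0.13, against -0.03. Signal near background limits Amotl1, Ankrd1, Stk3, and the p75Low values of Ctgf and of the main Amotl2 probe. It also limits most p75High values of the main Tead1 probe and most p75Low values of the other Tead1 probe.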
